A study of Mus musculus with 8 samples.

Results

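Mitochondrial ribosomal protein genes were taken as every gene whose symbol begins with Mrpl or Mrps followed by a number, 78 of the 27179 genes in the deposited expression table. RefSeq lists 84 such symbols for the mouse. The other 6 are the pseudogenes Mrpl23-ps1, Mrpl27-ps, Mrpl48-ps, Mrps36-ps1, Mrps36-ps2 and Mrps36-ps3, and they have no row in the table, so how reads from these near copies were counted is not known. The members were followed in C2C12 myoblasts, an immortalized, clonally derived mouse muscle cell line, on collagen-coated dishes. Cells in growth medium (GM) proliferated in DMEM containing 10% fetal bovine serum and were sampled at 50% confluence. Cells in differentiation medium (3d DM) had passed 90% confluence and were sampled after 3 days in 2% horse serum. None of these cells carried a knockdown or knockout. The groups therefore differ in serum, density and time in culture as well as in state, and these cannot be told apart. Each state had 2 input libraries of mRNA for RNA-seq and 2 matching libraries immunoprecipitated with an antibody to N6-methyladenosine (m6A) for MeRIP-seq. The labels do not say that replicates were separate cultures, so p-values measure the spread between these samples.

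The mitochondrial ribosome translates the few proteins encoded by mitochondrial DNA, all of them core subunits of the respiratory chain and ATP synthase. Its RNAs come from mitochondrial DNA, while its proteins are encoded in the nucleus, made in the cytosol and imported. Some of these proteins descend from bacterial ribosomal proteins and others are found only in mitochondria. The large subunit (mostly Mrpl) forms peptide bonds and the small subunit (mostly Mrps) decodes the mRNA, and skeletal muscle depends on both for oxidative capacity. By the lists used here, 29 members were bacterial-type large subunit proteins, 22 were mitochondria-specific large subunit proteins, 16 were bacterial-type small subunit proteins and 10 were mitochondria-specific small subunit proteins. Mrps18a and Mrps30 carry small subunit symbols but are proteins of the large subunit. Mrps36 was once counted as a ribosomal protein and is now known as a part of the 2-oxoglutarate dehydrogenase complex, so it fits the rule by name only.

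The expression values are normalized values without units, and every column adds up to about the same total. A single entry, which is no member, took 24.4% and 33.2% of the GM columns and 41.3% and 25.6% of the 3d DM columns, in order of replicate. Over the 11406 genes tested, the median log2 fold change (GM minus 3d DM) was 0.22 on the deposited values and 0.00 after the libraries were rescaled by median-of-ratios factors. Changes of the members are therefore given on both scales. All 6 muscle differentiation markers were higher in 3d DM and all 4 markers of dividing cells were higher in GM. Myog, which drives myoblast differentiation, had values of 1007.8 and 220.8 in GM against 5392.0 and 11502.3 in 3d DM. GM replicate 1 held more of all 6 muscle markers than GM replicate 2. Myh3, for example, had 1067.7 and 273.0 in GM, and Ckm had 109.9 and 17.1. No marker of adipocytes, immune cells, endothelium or osteoblasts passed the filter on low values.

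As a set, the mitochondrial ribosomal protein genes lay somewhat higher in GM, and 1 of the 77 tested members, Mrps6, differed beyond replicate error. The filter asked for a value of at least 25.1 in 2 libraries, and Mrpl36 did not pass it, with values of 0.0 and 0.0 in GM against 0.1 and 2.3 in 3d DM. In limma on log2(value + 1), 1 member was called higher in GM and 0 were called higher in 3d DM at a Benjamini-Hochberg adjusted p under 0.05. Among all genes tested, 9.96% were called higher in GM, and 7.01% were called higher in 3d DM. At an unadjusted p under 0.05, 5 of the 77 members were higher in GM and 0 in 3d DM, beside 16.6% and 9.63% of all genes. The median log2 fold change of the members was 0.38, with 67 above 0 and 10 below, beside 0.22 and 63.2% above 0 for all genes. After rescaling, the median was 0.16 with 53 members above 0 and 24 below, Mrps6 was again the only member called, and 14 of 77 members had an unadjusted p under 0.05, all higher in GM, beside 19.1% of all genes higher in GM and 19.2% lower. The members' counts past a p threshold in the GM direction were thus no larger than the background on either scale. Their share above 0 was larger, at 87.0% beside 63.2% of all genes, and at 68.8% beside 49.9% after rescaling. Over all genes, 11.2% were then called higher in GM while 12.0% were called lower.

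Both GM libraries exceeded both 3d DM libraries in 47 of 77 members, where 37.0% of all genes did, and the opposite held for 2 members, Mrpl53 and Mrps23, where 16.8% of all genes did. After rescaling, 33 members lay wholly higher in GM (33.3% of all genes) and 6 wholly higher in 3d DM (33.8%). The summed value of the 77 tested members was 34666 and 29627 in GM against 21650 and 26509 in 3d DM. As a share of the column total without its largest entry, this was 0.366% and 0.354% in GM against 0.294% and 0.284% in 3d DM. On this measure the states did not overlap. After rescaling, the sums were 29543 and 29705 in GM against 27898 and 24076 in 3d DM. These did not overlap either, but the 3d DM replicates lay further apart than the closest libraries of the states. The members changed over a narrow range. The interquartile range of their log2 fold changes was 0.48, beside 0.92 for all genes. The 3d DM replicates also differed from each other, since 65 of 77 members were lower in replicate 1 than in replicate 2, by a median of 0.31 on the log2 scale. Over all genes replicate 1 was lower by 0.51, and after rescaling the members were higher in replicate 1, by a median of 0.19, so this order depended on the scaling.

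**Figure D1:**
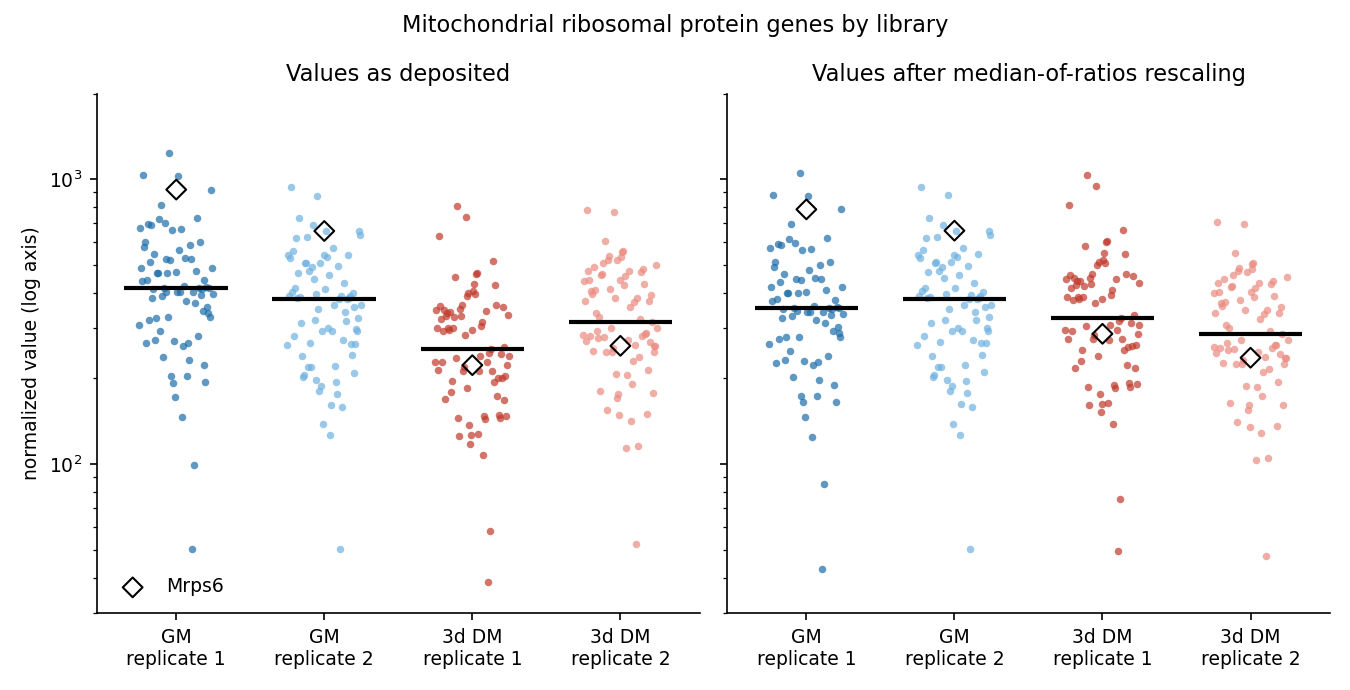
Normalized value (log axis) of each of the 77 tested members in the 4 input libraries, as deposited and after median-of-ratios rescaling. Points are genes, lines are medians over members and diamonds mark Mrps6. As deposited, the GM medians were 414.1 and 379.3 and the 3d DM medians 252.8 and 316.6. They were 352.9, 380.3, 325.8 and 287.5 after rescaling.

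Mrps6 encodes the bacterial-type small subunit protein bS6m and lies on chromosome 16 from 92058336 to 92112227 (mm10). Its value was 920.0 and 658.3 in GM against 222.6 and 260.3 in 3d DM, so both GM libraries were well above both 3d DM libraries. The means were 789.2 ± 185 in GM and 241.4 ± 26.6 in 3d DM (SD, n = 2). The log2 fold change was 1.69 (standard error 0.45, adjusted p = 0.00176 in limma), and 1.46 after rescaling (standard error 0.20, adjusted p = 0.0068 in limma). With any 1 of the 4 libraries left out, the log2 fold change stayed between 1.45 and 1.93 but the adjusted p rose to between 0.0599 and 0.243. The gene overlaps Slc5a3, a sodium-coupled myo-inositol transporter on the same strand, over 29138 bp. RefSeq exons of the genes share 145 nt, or 18.6% of the Mrps6 exonic sequence and 1.3% of that of Slc5a3. Slc5a3 had values of 741.0 and 911.2 in GM against 203.6 and 261.1 in 3d DM (log2 fold change 1.83, adjusted p = 0.000554 in limma). Both of these overlapping genes were lower in 3d DM, but within GM Mrps6 was higher in replicate 1 and Slc5a3 in replicate 2. How much of the Mrps6 value came from shared reads was not tested.

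The 4 members that followed Mrps6 had lower values in both 3d DM libraries, but none passed the adjusted threshold on either scale. Mrps27, a mitochondria-specific small subunit protein, had values of 344.9 and 264.9 in GM against 149.3 and 150.5 in 3d DM. Its log2 fold change was 1.01 (standard error 0.47, adjusted p = 0.141 in limma). Mrpl12, a stalk protein of the large subunit that is also known to bind the mitochondrial RNA polymerase, had 440.3 and 529.8 in GM against 213.8 and 270.7 in 3d DM. In each of these genes the lowest GM library was above the highest 3d DM library. The log2 fold change of Mrpl12 was 1.00 (adjusted p = 0.123). Mrpl47, a bacterial-type large subunit protein, had 270.1 and 293.0 in GM against 118.1 and 177.0 in 3d DM, for a log2 fold change of 0.96 (adjusted p = 0.175). Mrpl20, also of the bacterial-type large subunit, had 690.6 and 729.6 in GM against 340.5 and 409.0 in 3d DM, a log2 fold change of 0.93 (adjusted p = 0.153). After rescaling, the log2 fold changes of these 4 members were 0.78, 0.78, 0.73 and 0.70, with adjusted p between 0.056 and 0.0707 in limma.

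The call of these members depended on how the libraries were scaled. When values were divided by the column total without its largest entry, 7 members were called, all higher in GM: Mrps6, Mrpl20, Mrpl12, Mrps27, Mrpl18, Mrpl40 and Mrpl47. Over all genes this setting called 14.1% higher in GM, while 10.3% were lower, so the 7 of 77 did not exceed the background.

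At the other end of the range were Mrpl53, Mrps31, Mrps23, Mrpl50 and Mrpl33, of which the first 4 are mitochondria-specific proteins. None of them passed the test. Mrpl53 had values of 401.7 and 300.1 in GM against 466.7 and 426.4 in 3d DM, a log2 fold change of -0.36 (standard error 0.45, adjusted p = 0.699 in limma). Mrps23 had 414.2 and 379.3 in GM against 424.9 and 484.4 in 3d DM, a log2 fold change of -0.19 (adjusted p = 0.859). In both genes the 3d DM libraries lay just above the GM libraries. Mrps31 had 194.4 and 209.7 in GM against 201.1 and 268.6 in 3d DM. Mrpl50 had 400.5 and 413.4 in GM against 404.7 and 532.8 in 3d DM. For these a 3d DM library fell between the GM libraries as deposited. After rescaling both 3d DM libraries lay above both GM libraries in each of these genes. Mrps31 then had 165.7 and 210.3 in GM against 259.2 and 243.9 in 3d DM. The rescaled values of Mrpl50 were 341.3 and 414.5 in GM against 521.5 and 483.9 in 3d DM. Mrpl33, a bacterial-type large subunit protein, had 815.0 and 474.7 in GM against 803.1 and 607.4 in 3d DM, so its GM replicates were further apart than the states. After rescaling, the log2 fold changes of the 5 members ranged from -0.59 in Mrpl53 to -0.39 in Mrpl33, with adjusted p between 0.155 and 0.454 in limma.

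**Figure D2:**
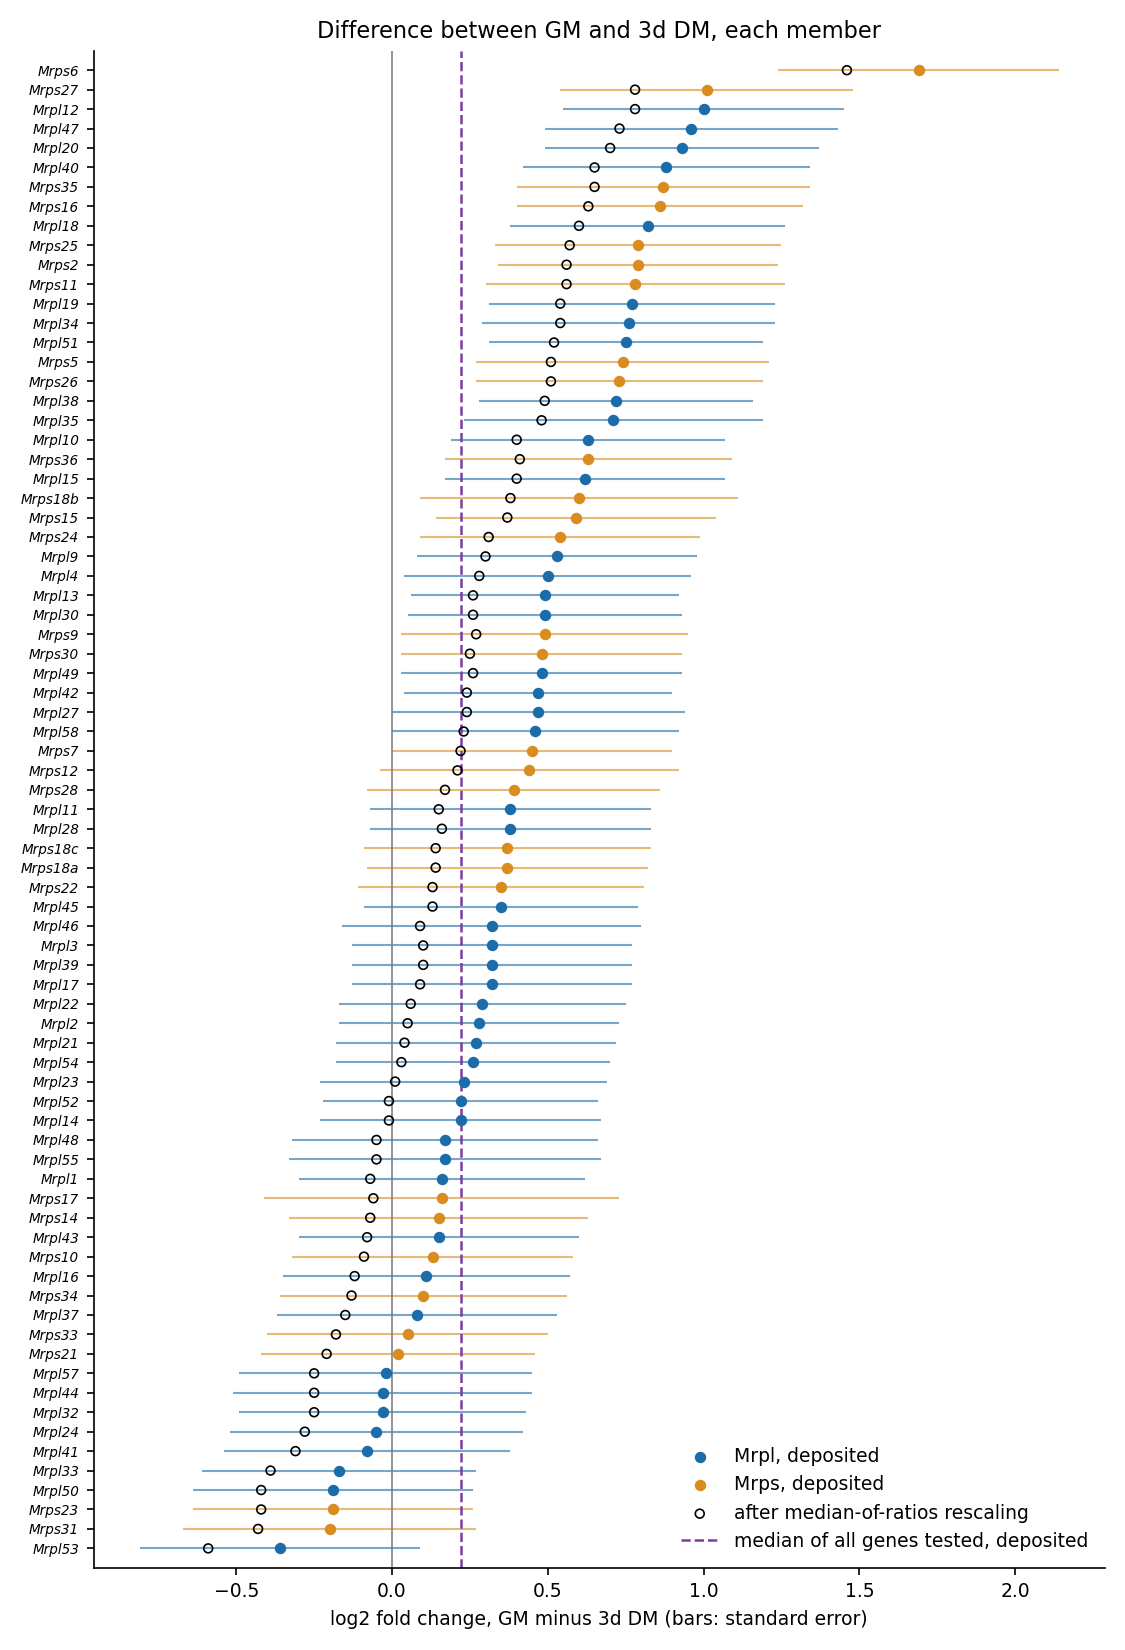
Log2 fold change (GM minus 3d DM) of each tested member, ordered by its size, with bars for the standard error on the deposited values and open circles for the rescaled values. Mrps6 stands apart at 1.69, the remaining members run from 1.01 to -0.36, and the dashed line is the median of all genes tested, 0.22.

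The medians of the ribosome's components lay between 0.29 and 0.48 as deposited, beside 0.22 for all genes. After rescaling they lay between 0.06 and 0.25, where 49.9% of all genes were above 0. The 48 tested Mrpl genes had a median log2 fold change of 0.32 (0.10 after rescaling) and the 29 Mrps genes a median of 0.48 (0.25 after rescaling). The 28 tested bacterial-type large subunit genes had a median of 0.43, with 25 above 0 and 0 called. Rescaled, their median was 0.20, with 22 above 0. The 22 mitochondria-specific large subunit genes had a median of 0.29, with 17 above 0 and 0 called. Rescaled, their median was 0.06, with 12 above 0 (54.5%), close to the share of all genes. All 16 bacterial-type small subunit genes were above 0, with a median of 0.47 and Mrps6 as the 1 call. After rescaling 12 of these 16 were above 0, with a median of 0.25. The 10 mitochondria-specific small subunit genes had a median of 0.48, with 8 above 0 and 0 called. Rescaled, their median was 0.25, with 6 above 0. Differences between these lists were not tested.

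Per length, the members covered a wide range of levels although they form a single particle. Levels between genes are given as the mean normalized value per kb of exons, from the union of coding transcripts. This level depends on the annotation used. Mrpl14 had 645 nt here but 2456 nt in RefSeq exons, while Mrpl33 had 478 and 466 nt. Their median level was 240 per kb, beside 87 per kb for all genes tested. The members were shorter, with a median exonic length of 1398 nt beside 3418 nt. The highest was Mrpl33 at 1412 per kb, followed by Mrpl42 at 1330, Mrps21 at 1048, Mrpl52 at 1043 and Mrpl54 at 851. Among these, Mrpl42, a mitochondria-specific large subunit protein, had values of 1233.3 and 875.1 in GM against 734.7 and 768.5 in 3d DM, and the states did not overlap as deposited (adjusted p = 0.561 in limma). After rescaling they did, with 1051.0 and 877.4 in GM against 946.7 and 697.9 in 3d DM (log2 fold change 0.24). Mrps21 had 732.0 and 342.2 in GM against 516.6 and 470.8 in 3d DM. Mrpl52 had 562.4 and 531.9 in GM against 395.9 and 558.0 in 3d DM. Mrpl54 had 667.7 and 461.6 in GM against 469.4 and 458.3 in 3d DM. For Mrps21, Mrpl52 and Mrpl54 the states overlapped, and their order among the high members does not hold beyond this spread. The lowest levels were those of Mrps17 at 8 per kb, Mrpl48 at 31 and Mrpl35 at 49, whose exon unions of 6003, 4696 and 3721 nt are long for members. Mrps17 had values of 50.4 and 50.2 in GM against 38.5 and 52.5 in 3d DM. Mrpl48 had 172.4 and 138.5 in GM against 126.6 and 148.5 in 3d DM. The states overlapped in both genes. Mrpl35 had 237.6 and 218.8 in GM against 125.4 and 154.5 in 3d DM, without overlap (log2 fold change 0.71, adjusted p = 0.377 in limma).

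Other genes of mitochondrial translation had median log2 fold changes between 0.31 and 0.39 as deposited, beside 0.22 for all genes. After rescaling these medians lay between 0.08 and 0.16. Of 5 ribosomal proteins of mitochondria with other symbols, such as Dap3, a small subunit protein, 0 were called and the median log2 fold change was 0.31. Dap3 had values of 597.1 and 588.1 in GM against 311.5 and 467.9 in 3d DM (adjusted p = 0.40 in limma), and Chchd1 and Gadd45gip1 had log2 fold changes of 0.35 and 0.31. Of 9 tested translation factors, 0 were called and the median was 0.39. The elongation factors Tufm and Tsfm had log2 fold changes of 0.70 and 0.68 and the release factor Mtrf1l 0.57, all short of the threshold. Of the 9 factors, 6 were above 0 and 3 below. After rescaling 5 were above 0 and 4 below. At an unadjusted p under 0.05, 1 was then higher in GM and 2 in 3d DM. Of 18 assembly and rRNA modification genes, 0 were called and the median was 0.33. The rRNA methyltransferase Nsun4 had values of 155.6 and 140.5 in GM against 201.1 and 269.3 in 3d DM and was called lower in GM after rescaling alone (adjusted p = 0.0306 in limma), while Mpv17l2 and Noa1 had log2 fold changes of 0.57 and 0.56.

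The mitochondrial aminoacyl-tRNA synthetases, which load tRNAs for this ribosome, had a median log2 fold change of 0.35 over 17 tested. After rescaling the median was 0.13. Nars2, the asparaginyl enzyme, had values of 70.3 and 86.3 in GM against 246.1 and 346.4 in 3d DM, a log2 fold change of -1.89 (adjusted p = 0.0012 in limma). This call held after rescaling (adjusted p = 0.00542). Wars2, the tryptophanyl enzyme, had a log2 fold change of 0.87 (adjusted p = 0.295). Among 13 regulators of mitochondrial genes the median was 0.38 (0.16 after rescaling) and 1 was called. Myc, a growth regulator, had 357.0 and 955.3 in GM against 169.5 and 274.8 in 3d DM (log2 fold change 1.43, adjusted p = 0.0126 in limma), a call that was lost after rescaling (adjusted p = 0.147). Nrf1, a transcription factor known for driving nuclear genes of mitochondria, had 360.5 and 351.2 in GM against 149.0 and 238.5 in 3d DM (log2 fold change 0.91, adjusted p = 0.189). Tfam, which packages mitochondrial DNA and helps start its transcription, had a log2 fold change of 0.62 (adjusted p = 0.421).

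Many members sat next to a gene that starts on the opposite strand. In RefSeq such a gene started within 1000 bp of the start of 31 of the 77 tested members (40.3%), compared with 17.2% of tested protein-coding genes. Mrpl46 and Mrps11 were each other's neighbour, with starts 42 bp apart. Of these 31 neighbours 28 were tested, and 4 were called higher in GM, beside 9.96% of all genes, with 0 called lower. After rescaling 5 were called, the fifth being Ptcd2 beside Mrps27, with 511.0 and 401.4 in GM against 185.5 and 221.1 in 3d DM as deposited (rescaled log2 fold change 0.93, adjusted p = 0.0228 in limma). The members beside these neighbours were not called on either of these scales. Ska3, a kinetochore protein, had values of 228.0 and 269.9 in GM against 30.9 and 44.4 in 3d DM (log2 fold change 2.71). Its neighbour Mrpl57 had 260.9 and 161.6 in GM against 211.9 and 206.0 in 3d DM, so only the neighbour separated the states. Eme1, a DNA repair endonuclease subunit beside Mrpl27, had 105.1 and 99.3 in GM against 11.9 and 20.9 in 3d DM (log2 fold change 2.62). Mrpl27 itself had 327.1 and 205.7 in GM against 195.2 and 180.0 in 3d DM (log2 fold change 0.47). Ncapd2, a condensin subunit beside Mrpl51, had 1037.5 and 1124.9 in GM against 167.2 and 301.6 in 3d DM (log2 fold change 2.26). Mrpl51 had 1024.1 and 656.3 in GM against 427.8 and 553.5 in 3d DM (log2 fold change 0.75), so there the states separated in both genes. Mtbp, known as an MDM2-binding protein, lies beside Mrpl13 and had a log2 fold change of 1.60 where Mrpl13 had 0.49. Adjusted p for the 4 neighbours ranged from 3.16e-06 to 0.0047 in limma. The difference between a member and its neighbour was not tested.

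**Figure D3:**
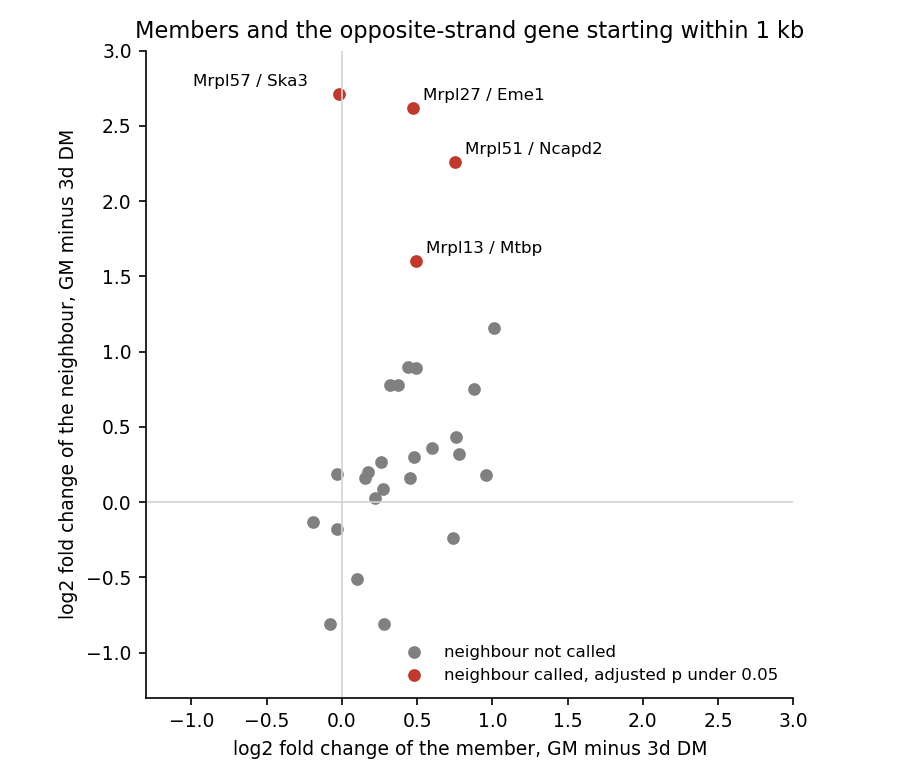
Log2 fold change (GM minus 3d DM, deposited values) of the opposite-strand neighbour against that of the member for the 28 pairs whose neighbour was tested. The 4 called neighbours in red lie between 1.60 and 2.71, while the members beside them lie between -0.02 and 0.75.

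The stretch upstream of the members was searched for the motifs of factors known to act on nuclear genes of mitochondria. RefSeq windows of 250 bases before to 50 after the start (GRCm38.p6) were at hand for 69 of the 78 members, 75 windows in all. Both strands were searched. The NRF1 core GCGCATGC was found in 10.7% of member windows, 5.4% of windows of tested genes and 2.7% of all windows. The ETS sequence CCGGAAGT, bound by the GABP factors, was found in 16% of member windows, 8.5% of those of tested genes and 3.9% of all, and the YY1 sequence AAGATGGCG in 10.7%, 3.2% and 1.4%. The SP sequence GGGCGG was found in 52.0% of member windows and 63.8% of those of tested genes, and CCAAT in 40% and 38%. Tested members with the NRF1 core had a median log2 fold change of 0.32 (8 members) beside 0.37 without it, and those with the ETS sequence 0.36 (12 members) beside 0.37. Those with the YY1 sequence had 0.54 (7 members) beside 0.35.

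All 4 members with more than 1 NRF1, ETS or YY1 match from 120 bases before to 30 after the start are shown over that stretch, in order of their log2 fold change: Mrps27 (chr13:99344666-99344815, plus strand), Mrpl9 (chr3:94443216-94443365, plus strand), Mrpl32 (chr13:14613008-14613157, minus strand) and Mrpl33 (chr5:31613831-31613980, plus strand). Capitals mark the matches.
Mrps27: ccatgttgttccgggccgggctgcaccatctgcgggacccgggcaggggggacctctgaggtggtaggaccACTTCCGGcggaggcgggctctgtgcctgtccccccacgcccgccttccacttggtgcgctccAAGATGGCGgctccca
Mrpl9: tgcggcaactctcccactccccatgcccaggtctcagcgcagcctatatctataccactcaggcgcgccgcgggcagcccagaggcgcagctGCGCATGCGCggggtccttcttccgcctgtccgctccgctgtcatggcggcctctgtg
Mrpl32: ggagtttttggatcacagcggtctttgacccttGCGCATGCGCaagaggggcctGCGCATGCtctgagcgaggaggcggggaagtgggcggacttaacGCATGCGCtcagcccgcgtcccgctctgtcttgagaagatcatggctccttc
Mrpl33: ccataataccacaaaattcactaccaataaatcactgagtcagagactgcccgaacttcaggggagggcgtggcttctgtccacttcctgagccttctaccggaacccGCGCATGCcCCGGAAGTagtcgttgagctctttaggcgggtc

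In Mrps27 an ETS match on the minus strand began 49 bases before the start and a YY1 match began at base 15 of the transcript. Mrpl9, a bacterial-type large subunit protein with a log2 fold change of 0.53, held a pair of NRF1 matches that overlap, on opposite strands. Mrpl32, which had values of 292.3 and 218.8 in GM against 236.7 and 280.3 in 3d DM, held 4 NRF1 matches, of which the first 2 overlap because the core and its reverse share letters. In Mrpl33 the NRF1 match began 12 bases and the ETS match 3 bases before the start. Members at both ends of the range thus held such matches. Mrps6 held none of the 3 from 120 bases before to 30 after its start. A match describes these letters and shows no binding.

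m6A is the most abundant internal mark of mRNA and is often found near the end of the coding sequence, in the sequence DRACH, where D is any base but C, R is a purine and H is any base but G. In MeRIP-seq a peak is a stretch where the immunoprecipitate exceeds its input. A peak was called on 53 and 57 members in GM and on 46 and 60 in 3d DM, each of them a tested member. The mean was 55.0 ± 2.83 in GM and 53.0 ± 9.90 in 3d DM (SD, n = 2), and no difference between the states was detectable (two-sided exact permutation test, p = 1). With 2 libraries a state this test cannot go below 0.33. Counting only peaks at a P of at most 1e-05, 46 and 48 members had one in GM against 32 and 42 in 3d DM, a difference in means of 10.0 rather than 2.0. With a library left out the difference ran from -5.0 to 9.0, turning negative without 3d DM replicate 1. Over all tested genes with a symbol, 63.8% and 60.4% had a peak in GM and 62.8% and 53.5% in 3d DM, beside 68.8%, 74.0%, 59.7% and 77.9% of the members. 3d DM replicate 2 therefore had the most members with a peak although its list held the fewest genes.

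**Figure D4:**
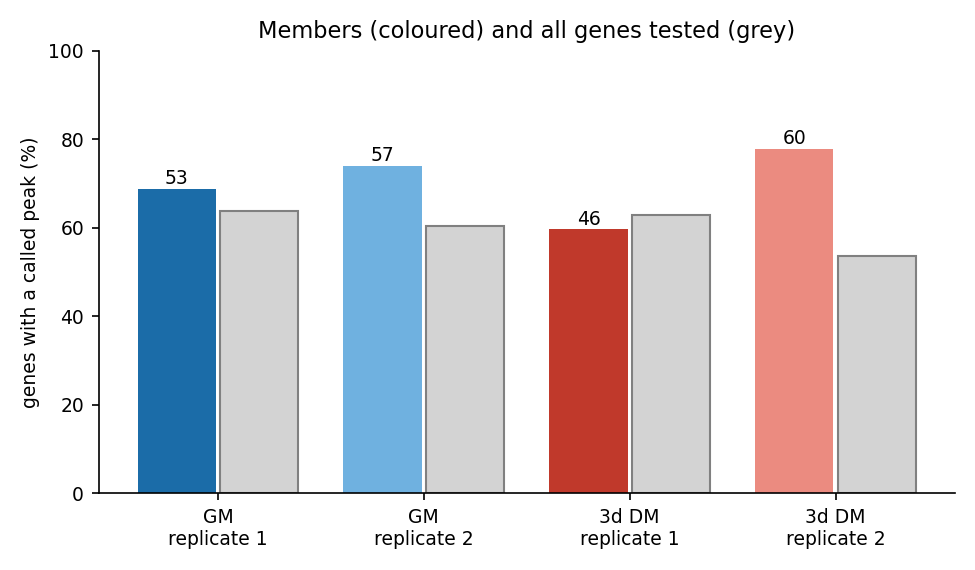
Percentage of genes with a called m6A peak in each library, for the 77 tested members (coloured, with the number above each bar) and for all tested genes with a symbol (grey). The members ranged from 59.7% in 3d DM replicate 1 to 77.9% in 3d DM replicate 2, further apart than the GM libraries at 68.8% and 74.0%.

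A peak was found in all 4 lists on 42 members (54.5%), compared with 42.6% of tested genes, and in no list on 13 members (16.9%), compared with 23.8%. Within exonic lengths of 699 to 4369 nt, the middle of the members' range, the shares in all 4 lists were 52.5% of members and 40.8% of tested genes. Expression level was not matched. Over all tested genes the median mean value was 490 with a peak in all 4 lists and 136 with none. The members' median mean value was 352.4, beside 292.2 for all genes tested. The 13 members without a peak were Mrpl23, Mrpl30, Mrpl35, Mrpl37, Mrpl48, Mrps9, Mrps10, Mrps12, Mrps14, Mrps16, Mrps17, Mrps18b and Mrps21. The median mean value of these 13 members, 325, was close to the 363 of the members with a peak in all 4 lists. Both sets had a median exonic length of 1418 nt. Among large subunit symbols 29 of 48 had a peak in all 4 lists, and among small subunit symbols 13 of 29. Mrps21, among the highest of all members per kb, had no called peak.

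Mrpl49, a mitochondria-specific large subunit protein, was the only member to have peaks in each GM library but none in 3d DM, a pattern of 2.7% of tested genes. No member showed the reverse, which held for 1.7% of them. In GM replicate 1 the Mrpl49 peaks lay in the 3′ UTR at chr19:6053749-6054134 (fold enrichment 2.07) and chr19:6054342-6054580 (3.55). In GM replicate 2 they lay at chr19:6053660-6053838 (4.50) and chr19:6053927-6054105 (2.27). Its expression values were 471.9 and 541.9 in GM against 294.9 and 444.2 in 3d DM. A pattern that followed the replicate number was more common. It held for 5 members, with peaks in both replicate 2 libraries and in neither replicate 1 library (6.5%, compared with 1.1% of tested genes). The reverse held for 0 members, compared with 3.2% of tested genes. Apart from these, 7 members lacked a peak in 3d DM replicate 1 alone (9.1%, compared with 2.0%). Mrps6 was among these 7, with a peak at the end of the transcript of 1.95-fold and 1.61-fold in GM and 3.66-fold in 3d DM replicate 2.

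After overlapping peaks were merged, 45 places on 42 members had a peak in all 4 lists. These were compared by the highest fold enrichment in each list, which need not come from the same stretch. In Mrps7 the 5.03 of 3d DM replicate 1 came from chr11:115607442-115607620, while the 3d DM replicate 2 peak ended at 115607412. None passed the test between GM and 3d DM. In limma on the log2 fold enrichment, 0 of 45 member peaks were called in either direction, and of the 6055 shared peaks of all genes 0.00% were called higher in GM, while 0.00% were lower. At an unadjusted p under 0.05, 1 member peak was higher in GM and 0 in 3d DM, beside 128 and 80 of all shared peaks. The median log2 ratio was 0.03 for members (25 above 0, 20 below) and 0.11 for all shared peaks. Both GM libraries exceeded both 3d DM libraries at 6 member peaks, where 21.8% of all shared peaks did, and the opposite held at 5, where 9.13% did. The peaks of members were weaker than most. Their median fold enrichment was 3.77 and 3.33 in GM against 3.28 and 4.06 in 3d DM, beside 5.41, 4.79, 4.50 and 4.95 for all shared peaks, so it was lower in each library.

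Mrpl40 and Mrpl19 were the only members enriched more than 10-fold in every library. Mrpl40, a mitochondria-specific large subunit protein, had fold enrichments of 52.50 and 23.00 in GM against 28.60 and 41.80 in 3d DM at chr16:18872018-18873578. Mrpl19, of the bacterial-type large subunit, had 17.20 and 43.80 in GM against 23.30 and 20 in 3d DM at chr6:81961473-81962464. In both the replicates of a state differed more than the states did. Mrps7 followed with 4.05 and 14.90 in GM against 5.03 and 6.54 in 3d DM. Mrps28 had 6.12 and 2.93 in GM against 6.08 and 14.20 in 3d DM, the lowest log2 ratio of all member peaks at -1.13 (standard error 0.57, adjusted p = 0.996 in limma). Mrpl41 had 9.72 and 7.01 in GM against 6.44 and 6 in 3d DM. The states were apart in Mrpl41, but by less than the spread allowed a call (log2 ratio 0.41, standard error 0.51). Mrps25 had 6.71 and 8.94 in GM against 6.04 and 6.95 in 3d DM. Mrpl12 had 7.97 and 6.84 in GM against 6.54 and 6.68 in 3d DM, close to each other while its expression value was lower in both 3d DM libraries. Mrpl13 had 5.71 and 7 in GM against 6.40 and 7.48 in 3d DM, with overlap.

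The highest log2 ratio was that of Mrpl17, a bacterial-type large subunit protein chosen here after its values were seen. Its peak at chr7:105809667-105810471 had fold enrichments of 3.77 and 5.30 in GM against 1.53 and 2.77 in 3d DM, a log2 ratio of 1.12 (standard error 0.40, adjusted p = 0.996 in limma). The states did not overlap, and it was the 1 member peak past the unadjusted threshold. The 3 most abundant members per kb with a shared peak were at the weak end, with mean fold enrichments of 2.24 in Mrpl33, 1.98 in Mrpl42 and 2.99 in Mrpl52.

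**Figure D5:**
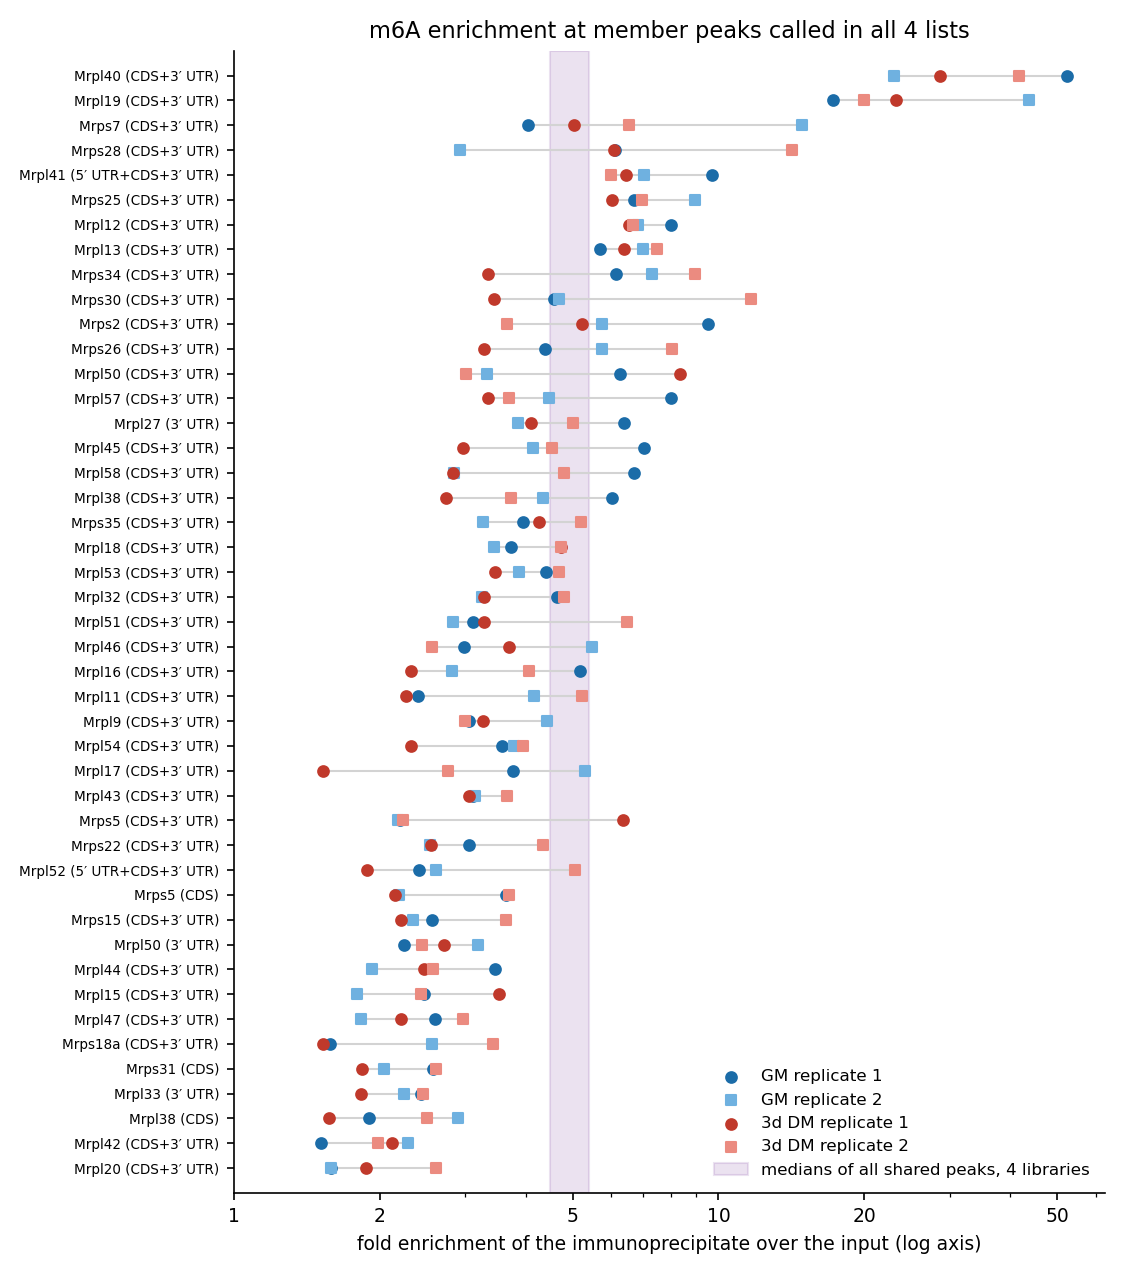
Highest fold enrichment of the immunoprecipitate over its input (log axis) at the 45 merged member peaks found in all 4 lists. They are ordered by mean fold, with the part of the transcript in brackets. Blue marks are GM and red marks 3d DM, circles replicate 1 and squares replicate 2, and the band spans the medians of all shared peaks, 4.50 to 5.41. Mrpl40 and Mrpl19 lie above 10 in every library and most members lie at or left of the band.

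Peaks on members were gathered at the end of the coding sequence. Of the 45 shared peaks 37 covered both CDS and 3′ UTR, 3 lay in the CDS, 3 in the 3′ UTR, and 2 spanned the 5′ UTR, CDS and 3′ UTR. Each was placed by the middle of its line with the highest fold in the 4 lists, not of the merged peak. Of the 41 that could be placed on a transcript, 35 (85.4%) had this middle within 200 nt of the last base of the CDS. The median was 12 nt beyond it. Over all peak lines, 59.1% and 74.0% of those on members in GM and 50.7% and 64.4% in 3d DM touched both CDS and 3′ UTR, compared with 21.7%, 25.5%, 19.4% and 20.4% for all genes. The members' transcripts are short, and the part of length in this difference was not tested. DRACH occurred 21.9 times per kb in member peaks and 22.7 times per kb in all shared peaks. The preferred form GGAC followed by A, C or T occurred 4.41 and 4.53 times per kb, and 84.4% of member peaks held it at least once compared with 90.0%. The member peaks were shorter, with a median of 390 nt beside 658 nt.

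A GGACT closest to the middle of the merged peak is shown for 7 of the 8 members with the strongest shared peaks. It was taken as the sequence nearest to the mark's known context. Such a site need not lie under the peak of every library. The Mrps28 site lay outside the GM replicate 1 peak, chr3:8802146-8802204. The Mrps7 site lay outside the 3d DM replicate 2 peak, chr11:115606818-115607412. Coordinates are mm10, read from GRCm38.p6: Mrpl19 chr6:81961923-81961943 minus strand, Mrps7 chr11:115607566-115607586 plus strand, Mrps28 chr3:8802270-8802290 minus strand, Mrpl41 chr2:24974464-24974484 minus strand, Mrps25 chr6:92174986-92175006 minus strand, Mrpl12 chr11:120488448-120488468 plus strand and Mrpl13 chr15:55539024-55539044 minus strand. Capitals mark the GGACT, whose A would carry the methyl group.
Mrpl19: tgatcctgGGACTagtgaatg
Mrps7: tccaatctGGACTagaataaa
Mrps28: gagatcagGGACTcaaaatca
Mrpl41: gtcgtcccGGACTtgacgggc
Mrps25: tctgggatGGACTggtggcat
Mrpl12: ggacttacGGACTagagttct
Mrpl13: cagagtgtGGACTccgtaagt

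The strongest peak of all members, that of Mrpl40, held 11 DRACH sequences and no GGAC. The Mrps7 peak held 5 GGAC and the Mrpl12 peak 7, so peaks of this width do not tell which A was methylated. Of these 8 peaks, those of Mrpl19, Mrps7 and Mrps25 lie in genes that share exons with an opposite-strand gene, but 0 nt of the peaks fell in those exons.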

How the data were processed

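RNA from C2C12 cells in GM or 3d DM was sequenced before (input, 4 libraries) and after m6A immunoprecipitation (4 libraries). The authors aligned reads to mm10 with HISAT2 2.1.0 and deposited a table of normalized signal values for the inputs, named for the TMM method and made with edgeR. The counting tool and strand setting are not given in the sources used here. Counts could not be recovered, so depth and counting error are unknown. The authors also deposited 4 exomePeak lists, 1 for each immunoprecipitate against its own input, with the p-value and the fold enrichment (a linear ratio) of each peak.

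Genes reaching a value of 25.1, which is 2 cpm of the column sums, in 2 or more libraries were tested on log2(value + 1) with limma 3.58.1 in R 4.3.3, with an intensity trend and GM and 3d DM as groups. Adjusted p-values are Benjamini-Hochberg values over all 11406 genes. Fold changes on this scale understate those of low genes. Peaks of a gene sharing at least 1 bp were merged, and the highest fold in each list was tested over all 6055 peaks present in all 4 lists. Rescaling divided each library by its median-of-ratios factor. Scripts were tested on simulated data. Genes named are those with an adjusted p under 0.05, the 5 highest and 5 lowest fold changes, the 5 highest and 3 lowest levels per kb, the 8 strongest shared peaks, members with a peak in 1 state only, and the 3 smallest p of each further list, of which 1 gene is not reported here. The members and lists were chosen with earlier results of these data known. Promoter sequences and gene models are from RefSeq (GRCm38.p6), and exonic lengths and CDS ends from GENCODE. Alternatives are given in the closing section.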

Additional observations from a re-analysis of the deposited data

How the results depend on the processing

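The count of 1 called member, Mrps6, was the same under the 3 other filters, both other pseudocounts, no intensity trend, and median-of-ratios or trimmed-mean factors. It was 7 with the column total without the largest entry, and 0 with each library left out in turn, where the lone library of a state is assumed to vary like the other state. The median log2 fold change of members was 0.16 with median-of-ratios factors and 0.16 with trimmed-mean factors, and 0.22 to 0.57 with a library left out, lowest without 3d DM replicate 1 and highest without 3d DM replicate 2. The difference in members with a peak was 10.0 at a P of at most 1e-05 (46 and 48 members in GM, 32 and 42 in 3d DM), and -5.0 to 9.0 with a library left out. It was -1.0 at a fold of at least 4. The median log2 ratio of member peaks was -0.13 to 0.28 with a library left out, and 0 member peaks were called under all alternatives. The causes were not tested, beyond the fewer samples of the fits that leave one out.

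States share replicate numbers, but the labels do not say that a number marks a shared culture or day, and with 2 pairs the numbers were not taken to pair the samples (deviations from the state mean correlated at r = 0.29 over 11406 genes). With the replicate block, 1 member was called (Mrps6, adjusted p = 0.0297) and the medians were 0.38 and 0.03. With the replicate block and median-of-ratios factors, 7 members were called, all higher in GM, where 15.8% of all genes were, and the median was 0.16. For single members, 338 of the refitted values kept their direction and side of the threshold, 10 newly passed it and 4, all Mrps6, no longer did. The other 23 changed sign, in members not called under any setting. With median-of-ratios factors (with or without the block) and trimmed-mean factors, the log2 fold change was -0.21 and -0.20 in Mrps21, -0.01 in Mrpl52, -0.06 in Mrps17 and -0.05 in Mrpl48, and without the largest entry it was -0.08 in Mrps21. With a library left out it ran from -0.53 to 0.57 in Mrps21, -0.03 to 0.47 in Mrpl52, -0.06 to 0.38 in Mrps17, -0.01 to 0.52 in Mrpl54, -0.41 to 0.01 in Mrps31, -0.39 to 0.01 in Mrpl50, -0.56 to 0.22 in Mrpl33 and -0.45 to 0.29 in Mrpl41.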
